A study of Mus musculus with 15 samples.

Results

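The 30 oligodendrocyte lineage genes described here were rows of the deposited count table chosen by symbol: 4 precursor surface genes, 6 lineage transcription factors, 6 genes of committed precursors and newly formed oligodendrocytes, and 14 myelin and mature oligodendrocyte genes. They were 30 of 24498 genes in the table. RNA-seq had been made from plated primary mouse hippocampal neurons, kept in Neurobasal medium with the B27 supplement and differentiated for 7 days. The cells then had 24 h of treatment. In the DMSO vehicle group (4 libraries) both agents were replaced by their solvents, and in the DMSO acetate group (4 libraries) 5 mM acetate was given with DMSO. The inhibitor vehicle group (3 libraries) had 20 µM of an ACSS2 inhibitor without acetate, and the inhibitor acetate group (4 libraries) had both. ACSS2 is the enzyme that makes acetyl-CoA from acetate. The labels name neither the inhibitor's chemistry, the age and strain of the mice, nor separate cultures behind the replicates, so p-values measure only the spread between these libraries, which may be technical.

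Oligodendrocytes wrap axons in myelin, and in culture they arise from precursor cells that divide and carry PDGFRA and NG2 on their surface. OLIG2 and SOX10 set up the lineage, NKX2-2 and then MYRF drive its differentiation, and a short committed stage marked by GPR17 and BCAS1 precedes the myelin proteins. Hippocampal neuron cultures usually hold some glia beside the neurons, and in bulk RNA fewer cells of a type and less RNA per cell cannot be told apart.

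Gene counts ran from 19688231 to 39234799 per library. As a check of the cell type label, Rbfox3, the neuron marker that encodes NeuN, averaged 219.7 ± 19.7 CPM (the read count scaled to library size, here after TMM normalization; SD, n = 4) in DMSO vehicle. Markers of other cells were present too, and they set a pair of vehicle libraries apart. The mean log2 CPM of 14 microglial markers was 2.86 in DMSO vehicle 1 against 5.14 to 5.20 in the other DMSO vehicle libraries, and it was -0.48 in inhibitor vehicle 2 against 4.48 and 4.81 in inhibitor vehicle 1 and 3. Many lineage genes in these libraries also lay toward their acetate levels. In log2 CPM, 19 of 24 tested members in DMSO vehicle 1 and 22 of 24 in inhibitor vehicle 2 were nearer to the mean of their arm's acetate libraries than to that of the rest of their vehicle group, though 16 members in DMSO vehicle 1 were still above every DMSO acetate library. The matching shares of all tested genes are not given here, so these counts do not set the members apart from other genes. The main counts and several results that rest on these libraries are also given without them. DMSO vehicle 1 also had the highest mean of 10 markers of dividing cells, at 5.44 against 4.14 to 4.39 in its group. The mean of 14 neuron markers was 8.28 in DMSO vehicle 1 and 8.25 in inhibitor vehicle 2, against 7.78 to 7.85 in the rest of their groups. What set these libraries apart was not tested, nor whether they carry the right labels, so the vehicle means and folds rest on the labels as given.

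With acetate, most of the lineage genes that could be tested were lower, across all stages from precursor to myelin. In DMSO cultures 20 of 24 tested members fell with acetate and 0 rose, where 27.5% of all 15075 tested genes fell and 23.7% rose (edgeR's quasi-likelihood test, Benjamini-Hochberg adjusted p under 0.05). The median log2 fold of the tested members was -2.43, against -0.03 over all tested genes. In inhibitor cultures 12 of 24 fell and 0 rose, against 20.6% and 14.5% of all genes, with a median of -1.85 against -0.03. In both arms 0 members rose at an unadjusted p under 0.05 by edgeR, and 0 rose at an adjusted p under 0.05 by DESeq2. Without inhibitor vehicle 3 the count that fell in inhibitor cultures was 6, where 12.7% of all genes fell. It was 14 without inhibitor vehicle 2 (23.7% of all genes) and 16 without DMSO vehicle 1 (22.7%). With both libraries that stood apart left out, a choice made after the values were seen, it was 19 (26.7% of all genes), and 20 fell in DMSO cultures (31.6%). Of the tested members, 9 passed the filter on low counts only through vehicle libraries, so their fall was in part fixed by that filter. The counts and medians above include them, and all 9 were among the members that fell in DMSO cultures. The precursor surface genes and the transcription factors held 0 such members. Their median log2 folds were -1.52 and -1.40 in DMSO cultures and -1.27 and -0.48 in inhibitor cultures. The 6 members left out as too low were Ninj2, Mog, Mobp, Opalin, Ermn and Aspa, each with 0 to 14 counts in every library.

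**Figure D1:**
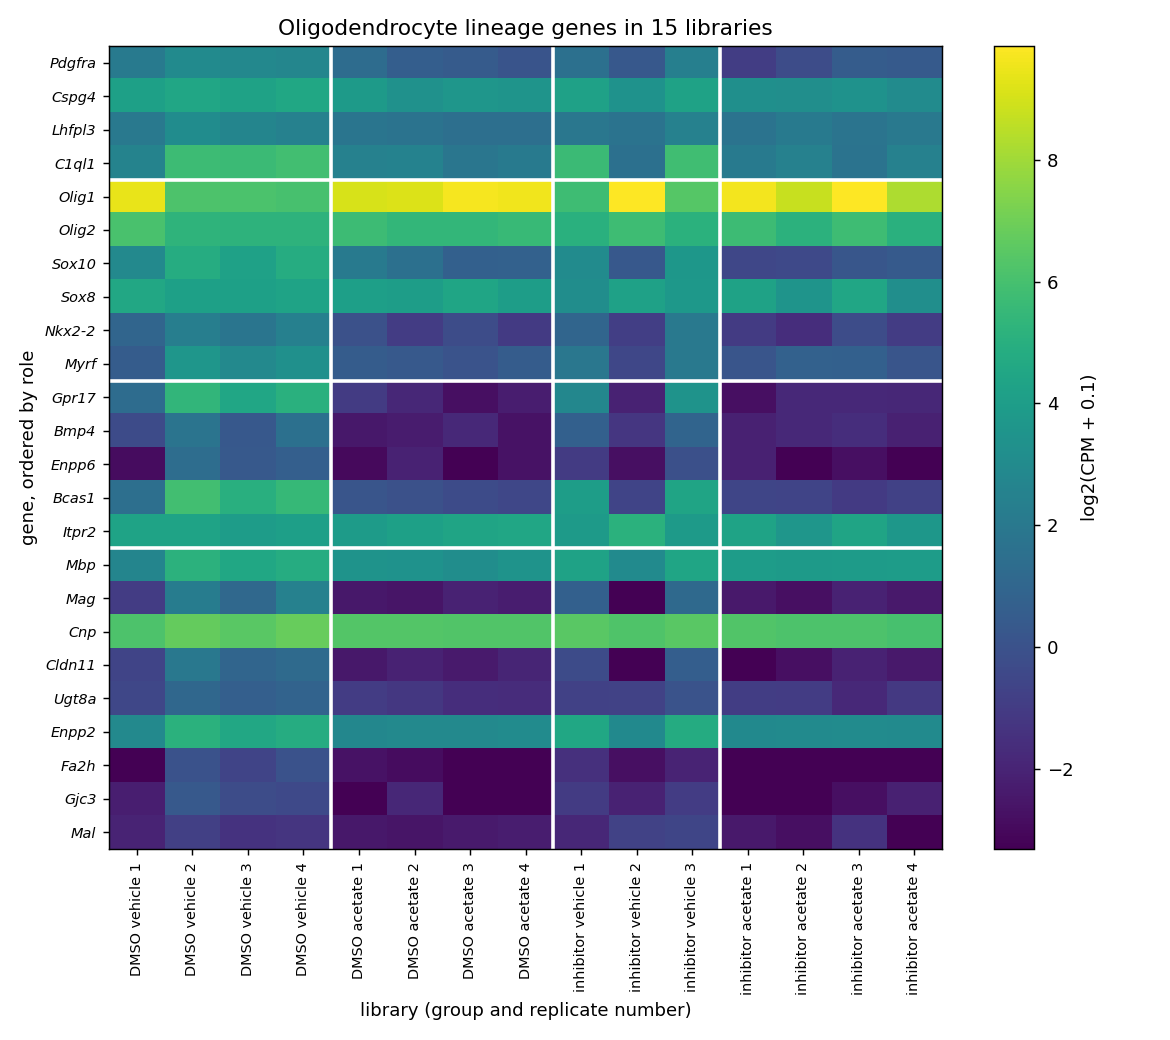
Heat map of the 24 tested lineage genes (vertical axis, ordered by role, white lines between roles) in 15 libraries (horizontal axis, white lines between groups); colour is log2(CPM + 0.1). Most committed and myelin genes (not Itpr2, Mbp, Cnp and Enpp2) are dark in all acetate libraries and darker in DMSO vehicle 1 and inhibitor vehicle 2 than in the rest of their groups, while Olig1 is bright in the same libraries.

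The precursor surface genes fell with acetate in DMSO cultures in 4 of 4 cases and in inhibitor cultures in 3 of 4, where 27.5% and 20.6% of all genes fell. C1ql1, which encodes a secreted C1q-like protein of precursors, had 5.94, 52.1, 50.0 and 59.4 CPM in DMSO vehicle 1 to 4 and 5.44, 5.60, 3.51 and 4.22 CPM in DMSO acetate. It had 50.4, 2.78 and 57.5 CPM in inhibitor vehicle and 4.13, 5.42, 3.11 and 5.44 CPM in inhibitor acetate. Every vehicle library but DMSO vehicle 1 and inhibitor vehicle 2 was at or above 50.0 CPM, while the acetate libraries stayed at or under 5.60 CPM. The log2 fold was -3.14 (SE 0.72, edgeR adjusted p = 0.0024) in DMSO cultures and -3.03 (SE 0.76, edgeR adjusted p = 0.00757) in inhibitor cultures.

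Cspg4, the gene of the NG2 proteoglycan, which pericytes also express, moved less. It had 18.0, 22.6, 19.5 and 22.9 CPM in DMSO vehicle against 14.7, 10.1, 12.2 and 11.4 CPM in DMSO acetate. Its values were 18.9, 10.7 and 19.5 CPM in inhibitor vehicle and 9.40, 9.04, 10.4 and 8.05 CPM in inhibitor acetate. The groups did not overlap in either arm, and the log2 folds were -0.78 (SE 0.17, edgeR adjusted p = 0.0017) and -0.83 (SE 0.18, edgeR adjusted p = 0.00421).

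Lhfpl3, which encodes a tetraspan membrane protein found in precursors, had 3.87, 8.37, 6.25 and 5.43 CPM in DMSO vehicle and 3.36, 3.18, 2.76 and 2.76 CPM in DMSO acetate. Under inhibitor it had 3.69, 3.14 and 5.41 CPM without acetate and 3.18, 4.27, 3.29 and 3.91 CPM with it. It fell in DMSO cultures by 0.98 on the log2 scale (SE 0.22, edgeR adjusted p = 0.00207), and the inhibitor groups overlapped (log2 fold -0.16, SE 0.24, edgeR adjusted p = 0.633). Pdgfra, the receptor of the precursor mitogen PDGF and also a fibroblast gene, fell in both arms (log2 folds -2.05, SE 0.41, and -1.71, SE 0.46). Without inhibitor vehicle 3 the fall of Pdgfra in inhibitor cultures, then -1.10, no longer passed.

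**Figure D2:**
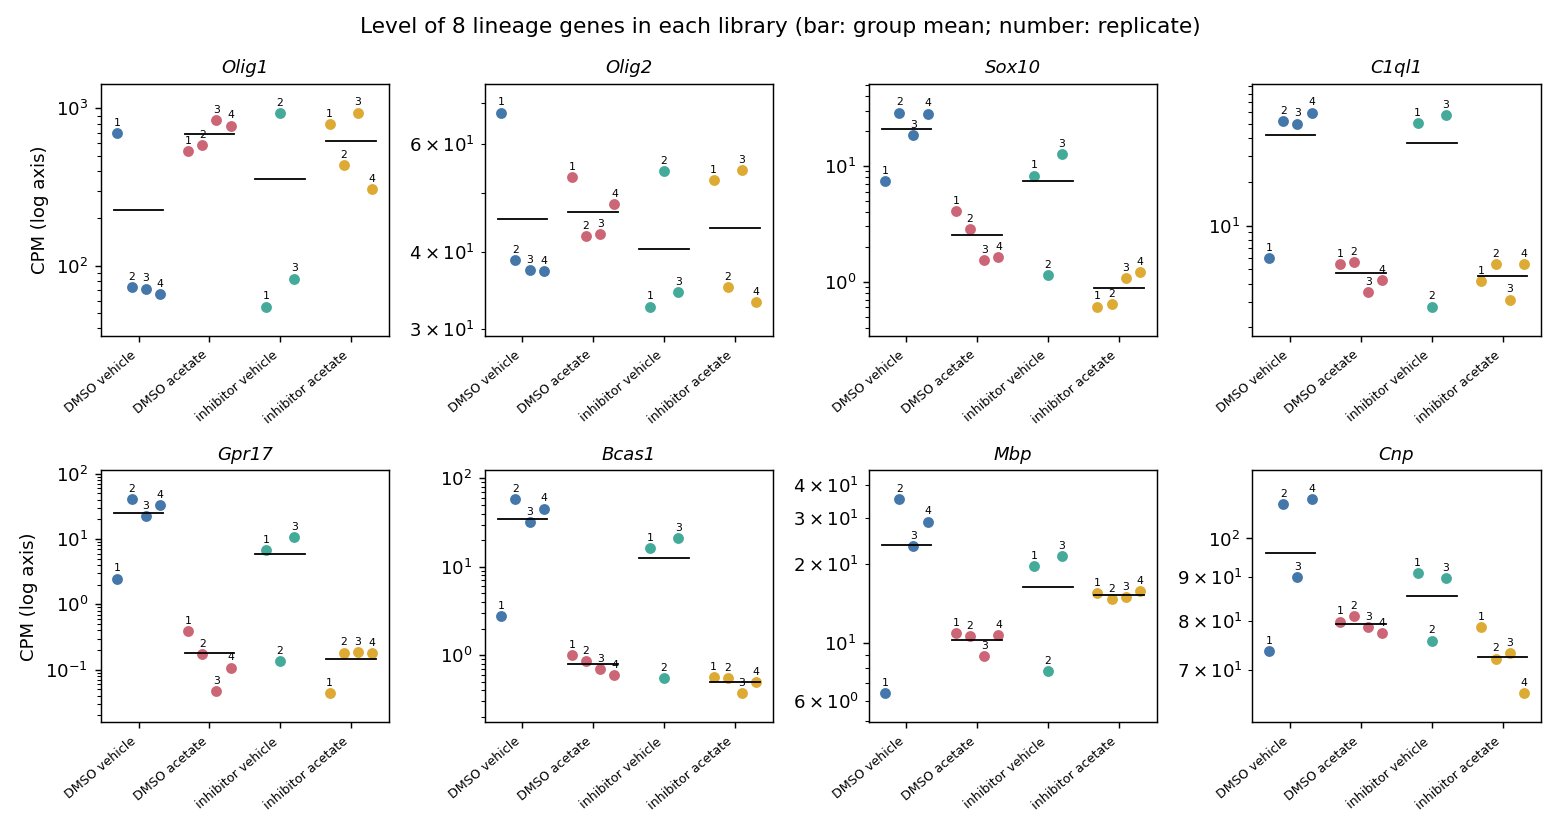
CPM (log axis) of 8 lineage genes in each library; points are libraries numbered by replicate, colours are the 4 groups and bars are group means. Sox10, C1ql1, Gpr17 and Bcas1 are low in every acetate library, Olig1 is at or above 306 CPM in those libraries, and DMSO vehicle 1 and inhibitor vehicle 2 are the highest or the lowest of their groups in all 8 panels.

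The transcription factors split into genes that fell and genes that did not pass. Sox10 (log2 fold -3.0, SE 0.57), Nkx2-2 (-2.65, SE 0.53) and Myrf (-2.66, SE 0.57) fell in DMSO cultures. Sox10, named here after its values were seen, had 7.37, 28.8, 18.3 and 28.3 CPM in DMSO vehicle and 4.05, 2.87, 1.54 and 1.62 CPM in DMSO acetate. With inhibitor it had 8.25, 1.14 and 12.7 CPM without acetate and 0.609, 0.643, 1.07 and 1.21 CPM with it. The vehicle and acetate libraries did not overlap in DMSO cultures, and in inhibitor cultures only inhibitor vehicle 2 lay within the acetate range. In inhibitor cultures Sox10 (-3.07, SE 0.66) and Nkx2-2 (-2.24, SE 0.59) fell, while Myrf had a log2 fold of -1.08 (SE 0.61, edgeR adjusted p = 0.182). The fall of Nkx2-2 in inhibitor cultures was -1.39 and did not pass without inhibitor vehicle 3, and that of Myrf passed without inhibitor vehicle 2.

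Olig1 and Olig2 are neighbouring genes of related basic helix-loop-helix factors on chromosome 16, with 41094 bp between them (GENCODE vM21, GRCm38). Olig1 had the widest range of the members in CPM. It had 695, 72.7, 71.4 and 66.2 CPM in DMSO vehicle 1 to 4 and 535, 585, 839 and 776 CPM in DMSO acetate. It had 54.9, 932 and 82.7 CPM in inhibitor vehicle 1 to 3 and 795, 438, 938 and 306 CPM in inhibitor acetate. All 8 acetate libraries were thus at or above 306 CPM, and 5 of 7 vehicle libraries were at or below 82.7 CPM; the exceptions were again DMSO vehicle 1 and inhibitor vehicle 2.

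The test of Olig1 over all libraries did not pass, with a log2 fold of 1.60 (SE 0.87, edgeR adjusted p = 0.139) in DMSO cultures and 0.80 (SE 0.94, edgeR adjusted p = 0.535) in inhibitor cultures. Without DMSO vehicle 1 its log2 fold in DMSO cultures was 3.27 and passed. Without inhibitor vehicle 2 it was 3.17 in inhibitor cultures and passed, and in DMSO cultures Olig1 then passed as well. With both left out, a choice made after the values were seen, the log2 folds were 3.29 (edgeR adjusted p = 3.54e-08) and 3.17 (edgeR adjusted p = 8.11e-07). In each vehicle library where Olig1 was high, Bcas1, C1ql1, Gpr17 and Mbp were at their group's lowest value. Olig1 made up 12.2% to 19.1% of the summed CPM of the 30 members in the 5 vehicle libraries with little Olig1 and 64.7% to 81.2% in the other 10 libraries.

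**Figure D3:**
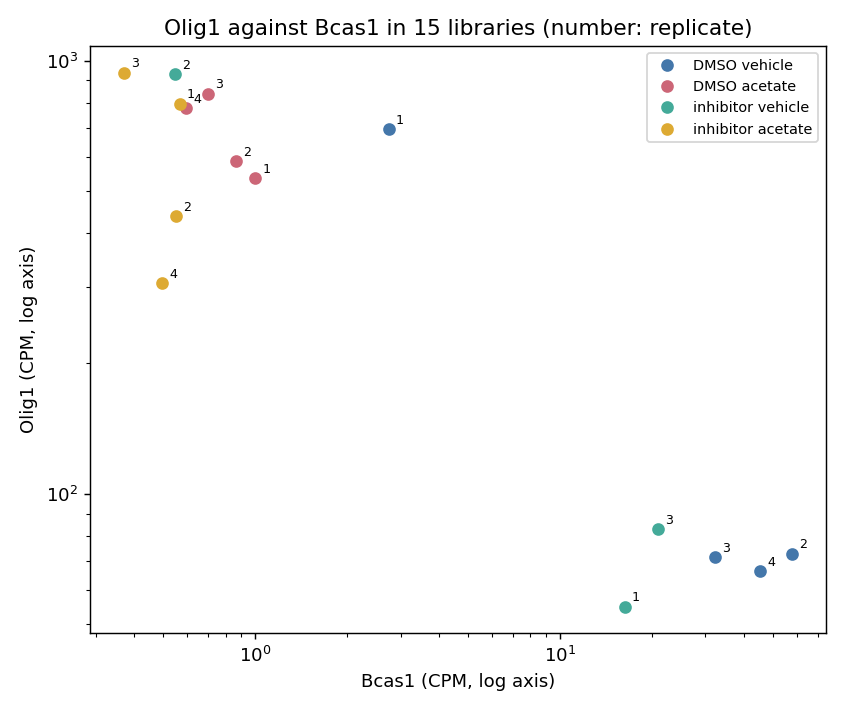
Olig1 against Bcas1, both in CPM on log axes, in 15 libraries coloured by group and numbered by replicate. The 5 vehicle libraries with Olig1 at or below 82.7 CPM have Bcas1 at or above 16.3 CPM, and the other 10 libraries, DMSO vehicle 1 and inhibitor vehicle 2 among them, have Bcas1 at or below 2.75 CPM.

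Olig2 had 67.5, 38.8, 37.4 and 37.3 CPM in DMSO vehicle and 53.0, 42.5, 42.9 and 47.9 CPM in DMSO acetate. With inhibitor it had 32.6, 54.2 and 34.5 CPM without acetate and 52.4, 35.1, 54.5 and 33.2 CPM with it. The groups overlapped, and the log2 folds of 0.04 (SE 0.22) and 0.12 (SE 0.24) changed sign under other scalings. Olig2 is also found in some astrocytes, and its level spanned 32.6 to 67.5 CPM while Olig1 spanned 54.9 to 938 CPM.

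Sox8, a SOX family relative of Sox10, had 23.6, 18.2, 17.9 and 19.7 CPM in DMSO vehicle and 17.7, 16.4, 21.3 and 16.3 CPM in DMSO acetate. It had 8.73, 18.6 and 13.2 CPM in inhibitor vehicle and 19.0, 11.2, 22.0 and 9.22 CPM in inhibitor acetate. Its log2 folds of -0.15 (SE 0.25) and 0.19 (SE 0.28) did not pass, and the groups overlapped in both arms. In the inhibitor acetate group Olig1, Olig2, Sox8 and Itpr2 each had higher values in replicates 1 and 3 than in replicates 2 and 4.

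The genes of committed precursors and newly formed oligodendrocytes fell in DMSO cultures in 4 of 5 tested cases, where 27.5% of all genes fell. Of the 5, Gpr17, Bmp4 and Enpp6 passed the filter on low counts only through vehicle libraries. Gpr17, a G protein-coupled receptor of committed precursors, had 2.48, 40.5, 22.4 and 33.3 CPM in DMSO vehicle and 0.388, 0.173, 0.0468 and 0.108 CPM in DMSO acetate. It had 6.78, 0.137 and 10.8 CPM in inhibitor vehicle and 0.0435, 0.184, 0.185 and 0.180 CPM in inhibitor acetate. The acetate libraries, at 0.388 CPM and under, were near the level of a few counts, and inhibitor vehicle 2 was among them. The log2 folds were -6.89 (SE 1.07, edgeR adjusted p = 0.000172) and -5.29 (SE 1.19, edgeR adjusted p = 0.00456). Gpr17 overlaps Lims2 on the opposite strand.

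Bcas1, a marker of newly formed myelinating cells, had 2.75, 57.7, 32.3 and 45.5 CPM in DMSO vehicle and 0.998, 0.864, 0.702 and 0.595 CPM in DMSO acetate. Under inhibitor it had 16.3, 0.547 and 21.0 CPM without acetate and 0.566, 0.551, 0.371 and 0.495 CPM with it. It fell in both arms, with log2 folds of -5.40 (SE 0.93, edgeR adjusted p = 0.000351) and -4.66 (SE 1.02, edgeR adjusted p = 0.00398), with no overlap in DMSO cultures and inhibitor vehicle 2 inside the acetate range. Bmp4, a secreted ligand of the BMP family, fell in both arms (-4.18, SE 0.64, and -2.84, SE 0.65), and its groups did not overlap in either. Enpp6, a choline phosphodiesterase of newly forming cells, fell in DMSO cultures (-4.42, SE 1.03) from 143 counts over 4 vehicle libraries to 6 over 4 acetate libraries, and in inhibitor cultures it did not pass (-3.13, SE 1.29, edgeR adjusted p = 0.0719).

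Itpr2, the type 2 receptor of inositol trisphosphate, a calcium channel that astrocytes also express, was the exception among the committed genes. It had 20.2, 20.4, 15.4 and 17.4 CPM in DMSO vehicle and 14.97, 18.0, 21.2 and 22.1 CPM in DMSO acetate. It had 14.4, 34.5 and 14.7 CPM in inhibitor vehicle and 20.0, 12.03, 21.1 and 12.5 CPM in inhibitor acetate. Its groups overlapped, and the log2 folds were 0.05 (SE 0.26) and -0.37 (SE 0.28), of which neither passed; the first was negative under upper-quartile scaling. Ninj2, an adhesion molecule gene, had 0 to 3 counts in each library and was not tested.

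The myelin genes fell in DMSO cultures in 9 of 9 tested cases and in inhibitor cultures in 4 of 9, where 27.5% and 20.6% of all genes fell, and the other 5 of the 14 were too low to test. Of the 9, 6 (Mag, Cldn11, Ugt8a, Fa2h, Gjc3 and Mal) passed the filter only through vehicle libraries. Mbp encodes myelin basic protein, and its locus also gives golli transcripts that neurons express. It had 6.39, 35.3, 23.4 and 29.0 CPM in DMSO vehicle and 10.9, 10.6, 8.85 and 10.7 CPM in DMSO acetate. With inhibitor it had 19.6, 7.79 and 21.4 CPM without acetate and 15.4, 14.7, 14.97 and 15.8 CPM with it. DMSO vehicle 1 and inhibitor vehicle 2 were below all 8 acetate libraries, and the other vehicle libraries were above them. Mbp fell by 1.20 (SE 0.38, edgeR adjusted p = 0.0162) in DMSO cultures, a call that was lost without DMSO vehicle 2 (-0.95), and its log2 fold in inhibitor cultures was -0.10 (SE 0.40, edgeR adjusted p = 0.866). With DMSO vehicle 1 and inhibitor vehicle 2 both left out, a choice made after the values were seen, Mbp fell in inhibitor cultures (-0.43, SE 0.13, edgeR adjusted p = 0.00988).

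Cnp, the cyclic nucleotide phosphodiesterase of myelin sheaths, was the highest myelin member per length of transcript. It had 73.7, 109.8, 90.1 and 111 CPM in DMSO vehicle and 79.8, 81.1, 78.6 and 77.4 CPM in DMSO acetate. It had 91.0, 75.8 and 89.8 CPM in inhibitor vehicle and 78.6, 72.2, 73.2 and 65.7 CPM in inhibitor acetate. Its fall of 0.28 (SE 0.11, edgeR adjusted p = 0.0452) in DMSO cultures was small and was lost without DMSO vehicle 2 or 4, any DMSO acetate library, or inhibitor acetate 1, 2 or 3, and in inhibitor cultures it did not pass (-0.24, SE 0.12). Cnp overlaps Dnajc7 on the opposite strand.

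Mag, the myelin-associated glycoprotein of the inner myelin layer, had 0.414, 4.56, 2.08 and 5.51 CPM in DMSO vehicle and 0.0832, 0.0691, 0.140 and 0.108 CPM in DMSO acetate. It had 1.56, 0 and 2.19 CPM in inhibitor vehicle and 0.0870, 0.0459, 0.139 and 0.0900 CPM in inhibitor acetate. A count of 0 in inhibitor vehicle 2 allows up to 0.137 CPM. The log2 folds were -4.96 (SE 0.96, edgeR adjusted p = 0.000775) and -3.74 (SE 1.07, edgeR adjusted p = 0.0154), and the second did not pass without inhibitor vehicle 3 (-3.06).

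Cldn11, the claudin that seals myelin and that meningeal cells also express, had 0.564, 3.81, 1.90 and 2.30 CPM in DMSO vehicle against 0.0832, 0.138, 0.0936 and 0.162 CPM in DMSO acetate. It had 0.695, 0 and 1.44 CPM in inhibitor vehicle and 0, 0.0459, 0.139 and 0.0900 CPM in inhibitor acetate. Its log2 folds were -4.16 (SE 0.82) and -3.33 (SE 1.02), and it fell in both arms. Enpp2, which encodes autotaxin and is also strong in choroid plexus, had 7.33, 34.0, 24.2 and 28.2 CPM in DMSO vehicle and 6.90, 7.29, 7.30 and 8.05 CPM in DMSO acetate. Inhibitor cultures had 22.8, 7.47 and 27.9 CPM without acetate and 7.70, 7.85, 8.20 and 7.87 CPM with it. The 8 acetate libraries thus lay within 6.90 and 8.20 CPM, a narrow band that held DMSO vehicle 1 and inhibitor vehicle 2, and Enpp2 fell in both arms (-1.67, SE 0.39, and -1.30, SE 0.41). In inhibitor cultures the call of Cldn11 was lost without inhibitor vehicle 1 or 3 or inhibitor acetate 1 or 2, and that of Enpp2 without inhibitor vehicle 1 or 3 or any inhibitor acetate library, with log2 folds of -2.29 and -0.94 at the least.

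Ugt8a, the enzyme of galactocerebroside synthesis, had 0.602, 1.99, 1.48 and 1.76 CPM in DMSO vehicle and 0.416, 0.345, 0.234 and 0.216 CPM in DMSO acetate. Inhibitor cultures had 0.478, 0.501 and 0.945 CPM without acetate and 0.435, 0.413, 0.185 and 0.360 CPM with it. It fell in DMSO cultures by 2.20 (SE 0.39, edgeR adjusted p = 0.000469) and did not pass in inhibitor cultures (-0.88, SE 0.45, edgeR adjusted p = 0.14), though the libraries did not overlap there either. With DMSO vehicle 1 and inhibitor vehicle 2 both left out, a choice made after the values were seen, Ugt8a fell in inhibitor cultures (-1.03, SE 0.39, edgeR adjusted p = 0.0341).

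The other tested myelin genes were rarer. Fa2h, which hydroxylates myelin fatty acids, fell in DMSO cultures from 64 counts over the vehicle libraries to 3 over the acetate libraries, a 21.3-fold ratio (95% interval 6.97 to 106, which covers counting error only). In inhibitor cultures it went from 11 counts to 0, at least 4.55-fold lower when set against 3 counts over the group, and did not pass (edgeR adjusted p = 0.0732). Gjc3, a glial connexin, had 73 and 5 counts over the DMSO groups and 23 and 4 over the inhibitor groups, and its log2 folds were -3.71 (SE 0.92, edgeR adjusted p = 0.00383) and -2.69 (SE 1.11, edgeR adjusted p = 0.0731). Mal, a proteolipid of membrane trafficking, stayed at or under 0.567 CPM and fell in both arms (-1.74, SE 0.65, edgeR adjusted p = 0.035, and -1.98, SE 0.67, edgeR adjusted p = 0.0322). The call of Mal was lost in DMSO cultures without DMSO vehicle 3 or 4 or any DMSO acetate library, and in inhibitor cultures without inhibitor vehicle 2 or 3 or inhibitor acetate 1, 2 or 4. In inhibitor cultures Gjc3, like Enpp6, passed without DMSO vehicle 1 or inhibitor vehicle 2, and Fa2h, like Cnp, passed without DMSO vehicle 1.

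The mature markers were at the edge of detection. Ermn, a cytoskeletal protein of mature cells, had 28, 18, 23 and 24 counts summed over DMSO vehicle, DMSO acetate, inhibitor vehicle and inhibitor acetate. Mog and Mobp, which encode proteins of the outer and compact myelin, had 2, 1, 7 and 2 counts and 7, 2, 1 and 2 counts in the same order. Opalin had 7, 2, 2 and 1 counts, and Aspa, the enzyme that frees acetate from N-acetylaspartate, had 8, 3, 2 and 4. At this depth no difference in these genes was detectable.

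Promoter sequence is shown for 4 members, chosen by their motifs and their responses to acetate. They do not cover the range in the set: Mobp had 6 SOX cores, and Olig2 had a log2 fold of 0.04 in DMSO cultures. Of the 30 members, 21 had a start in the RefSeq promoter table (GRCm38.p6), and the 250 bases upstream were searched on both strands for an E-box CANNTG, bound by the OLIG and other basic helix-loop-helix factors, a SOX core ACAAAG or ACAATG, and a MYRF core CTGGCAC or CTGGTAC. Enpp2, Mbp, Sox10, Olig1, Myrf, Fa2h, Gpr17, C1ql1 and Bcas1 had no entry. An E-box was in 12 of 21 windows, against 66.2% of 32851 starts in the table; a SOX core was in 7 of 21, against 25.2%; and a MYRF core in 3 of 21 (Mog, Mag and Cnp), against 5.93%. Only the part of each window that holds no annotated exon is printed, 5′ to 3′ on the gene's strand, with the matches in capitals; no matches overlap in these 4. They are Mag (chr7:30914874-30915113, minus strand), Cnp (chr11:100574689-100574903, plus strand), Cldn11 (chr3:31149670-31149919, plus strand) and Bmp4 (chr14:46390670-46390919, minus strand).
Mag: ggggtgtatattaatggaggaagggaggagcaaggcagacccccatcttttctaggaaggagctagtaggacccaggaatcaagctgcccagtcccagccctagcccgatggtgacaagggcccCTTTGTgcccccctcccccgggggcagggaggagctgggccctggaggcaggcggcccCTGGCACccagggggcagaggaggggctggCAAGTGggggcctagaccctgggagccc
Cnp: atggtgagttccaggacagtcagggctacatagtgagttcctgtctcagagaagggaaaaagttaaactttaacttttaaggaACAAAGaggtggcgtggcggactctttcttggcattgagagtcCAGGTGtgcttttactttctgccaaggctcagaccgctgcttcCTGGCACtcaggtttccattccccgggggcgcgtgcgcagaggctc
Cldn11: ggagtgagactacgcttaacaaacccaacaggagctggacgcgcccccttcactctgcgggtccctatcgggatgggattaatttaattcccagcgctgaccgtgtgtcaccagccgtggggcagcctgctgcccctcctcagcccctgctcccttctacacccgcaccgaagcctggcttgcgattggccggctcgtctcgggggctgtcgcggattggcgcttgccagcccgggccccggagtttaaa
Bmp4: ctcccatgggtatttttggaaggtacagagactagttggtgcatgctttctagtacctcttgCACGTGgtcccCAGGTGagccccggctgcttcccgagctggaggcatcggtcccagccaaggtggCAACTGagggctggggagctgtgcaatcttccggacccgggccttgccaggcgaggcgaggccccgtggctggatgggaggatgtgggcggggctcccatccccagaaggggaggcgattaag
Mag and Cnp each carried 1 SOX core, 1 MYRF core and 1 E-box, and their log2 folds with acetate in DMSO cultures were -4.96 and -0.28. Cldn11 held none of the 3 motifs in this window and had a log2 fold of -4.16, and Bmp4 held 3 E-boxes alone and had -4.18. A match is a description of the letters and not of a factor's binding. These 4 were picked by motif and by response, and a link between motif and response was not tested.

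The mean log2 CPM of the 4 precursor surface genes minus that of the 9 tested myelin genes was 2.01 ± 0.40 in DMSO vehicle (SD, n = 4), 2.32 ± 0.24 in DMSO acetate (SD, n = 4), 2.12 ± 0.16 in inhibitor vehicle (SD, n = 3) and 2.12 ± 0.20 in inhibitor acetate (SD, n = 4), and the groups overlapped. The overlap in DMSO cultures came from DMSO vehicle 1, at 2.55: the other DMSO vehicle libraries, 1.66 to 2.08 with a mean of 1.83 ± 0.22 (SD, n = 3), lay below the DMSO acetate libraries, 2.15 to 2.67. Setting that library aside was a choice made after its values were seen. Of the 9 myelin genes, 6 passed the filter on low counts only through vehicle libraries, against 0 of the 4 precursor genes. A higher precursor minus myelin difference with acetate was thus in part fixed by that filter. The size of this difference also depends on the prior count added to each gene, since a prior count of 0.5 in place of 2 gave 2.86 in DMSO acetate. Myelin genes made up 26.9 ± 11.6% of the summed CPM of all 30 members in DMSO vehicle and 11.2 ± 1.98% in DMSO acetate, and 26.5 ± 16.1% and 13.3 ± 4.90% in the inhibitor groups. This share followed Olig1: with Olig1 left out of the sum, an alternative added after its level was seen, the shares were 37.3%, 47.0%, 42.7% and 50.2%, higher with acetate in place of lower. Cnp was the largest part of the myelin sum in every group.

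Per kilobase of annotated exon, the order of the members changed with acetate. In DMSO vehicle it began with Olig1 (105 ± 144 CPM per kb, SD, n = 4), C1ql1 (28.4 ± 16.5), Cnp (26.4 ± 4.89), Olig2 (17.9 ± 5.88) and Bcas1 (9.15 ± 6.26), and the spreads of neighbours in this order overlapped. The first place of Olig1 rested on DMSO vehicle 1: without that library C1ql1 came first (36.5 ± 3.34, SD, n = 3), before Olig1 (32.4 ± 1.60), Cnp (28.5 ± 3.25), Olig2 (14.96 ± 0.340) and Bcas1 (11.96 ± 3.37). In DMSO acetate it was Olig1 (316 ± 67.8), Cnp (21.8 ± 0.429), Olig2 (18.4 ± 1.97), Sox8 (5.75 ± 0.762) and C1ql1 (3.18 ± 0.678), and neighbours in that order differed by more than their spreads together. Bcas1 went from rank 5 to 12 among the 30 and Gpr17 from 8 to 20.

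In each arm the acetate response was read against its own vehicle group, and whether the responses differed was tested as an interaction. For 0 of 24 tested members did the difference of responses pass, against 0.0133% of all genes in the positive and 0.00663% in the negative direction (edgeR). At an unadjusted p under 0.05 the count was 2 positive and 0 negative, against 7.83% and 12.8% of all genes, so 2 of 24 was near the background; they were Lhfpl3 (0.82, SE 0.33) and Ugt8a (1.32, SE 0.60), named after their values were seen. DESeq2 also called 0. Over all 15 libraries a difference between the arms was thus not shown for any member, while Mbp and Myrf passed without the pair of vehicle libraries that stood apart. The libraries of DMSO cultures and inhibitor cultures did not overlap, with acetate below vehicle, for 14 of 24 members (23.3% of all tested genes) and 5 of 24 (16.4%). The second count was near its share of all genes. Among them were Gpr17, Bmp4, Mag, Cldn11, Ugt8a and Mal in DMSO cultures, and Bmp4, Ugt8a, Fa2h and Gjc3 in inhibitor cultures. These genes passed the filter on low counts only through vehicle libraries, so their separation was in part fixed by that filter.

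**Figure D4:**
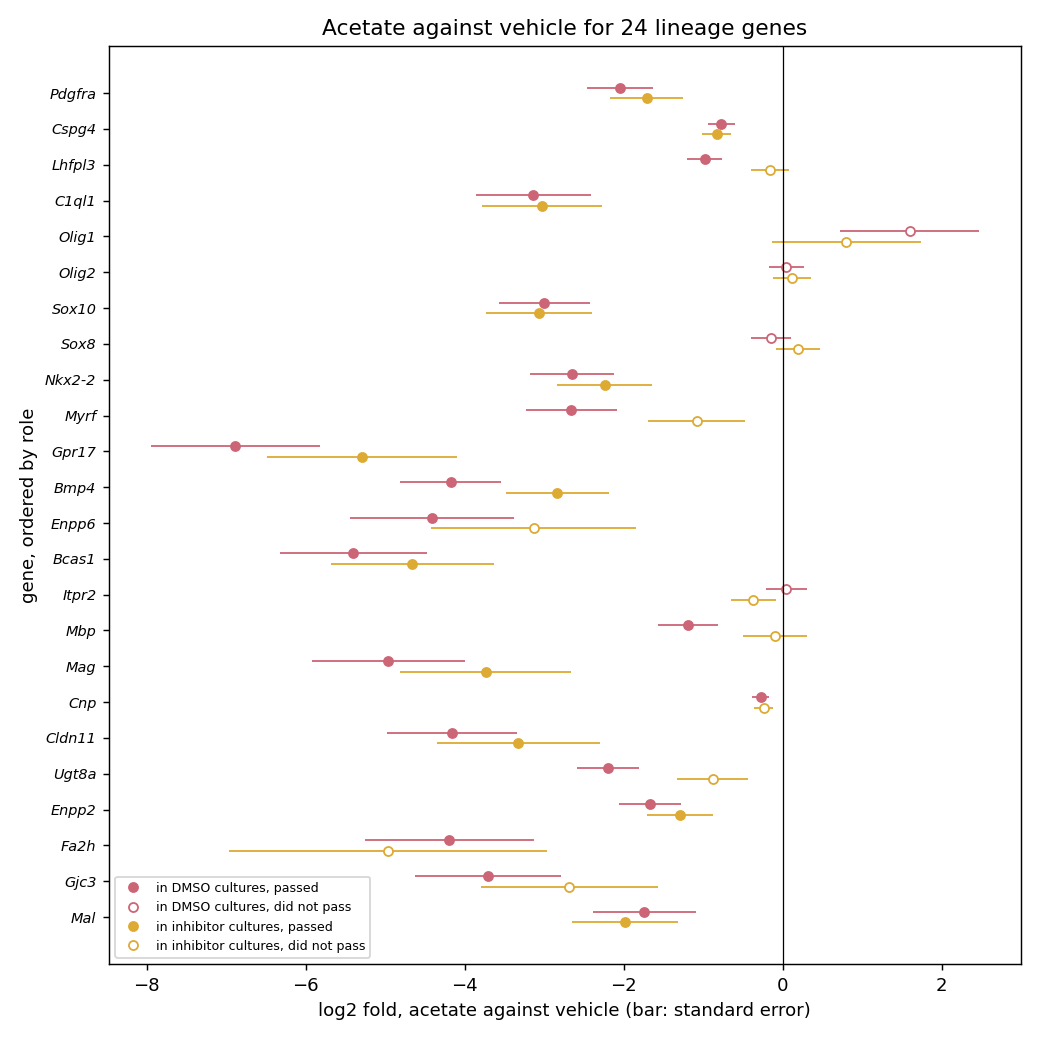
Log2 fold of acetate against vehicle (horizontal axis; bars are standard errors) for 24 lineage genes (vertical axis, ordered by role) in DMSO and inhibitor cultures; filled points passed the test and open points did not. The folds of both arms lie to the left of 0 for most genes, with Olig1 on the right in both; the point of Fa2h in inhibitor cultures is a fitted value against 0 counts and is no bound.

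The inhibitor by itself called none of the members. In vehicle cultures 0 of 24 rose and 0 fell by edgeR, against 3.47% and 1.99% of all tested genes, and DESeq2 also called 0; at an unadjusted p under 0.05, 7 fell and 0 rose, against 11.3% and 14.1% of all genes. With DMSO vehicle 1 and inhibitor vehicle 2 both left out, which leaves 3 against 2 vehicle libraries, 9 members fell, against 2.6% of all tested genes: Gpr17 (-1.86, SE 0.24), Fa2h (-1.97, SE 0.49), Myrf (-1.36, SE 0.22), Cldn11 (-1.32, SE 0.36), Bcas1 (-1.28, SE 0.18), Ugt8a (-1.28, SE 0.33), Sox10 (-1.26, SE 0.28), Mag (-1.11, SE 0.31) and Mbp (-0.51, SE 0.13). Over all 7 libraries, 0 of 24 members separated the groups without overlap, against 7.36% of all genes lower and 9.35% higher. Leaving out the pair was a choice made after the members' values were seen, and it rests on them in part. Bcas1 shows the sizes: it had 32.3 to 57.7 CPM in DMSO vehicle 2 to 4 and 16.3 and 21.0 CPM in inhibitor vehicle 1 and 3. Without DMSO vehicle 1 alone 4 members fell, against 1.91% of all genes, and without inhibitor vehicle 3 alone 2 fell, against 4.14%.

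In acetate cultures the inhibitor called 0 of 24 in either direction (2.36% of all genes rose and 3.42% fell by edgeR), DESeq2 called 0, and at an unadjusted p under 0.05, 2 fell and 0 rose, against 12.6% and 9.37% of all genes. Sox10 and Bcas1 were lower in every inhibitor acetate library than in every DMSO acetate library, where 12.4% of all genes did not overlap in that direction, and Mbp was higher, where 8.96% did. The values of Mbp, 14.7 to 15.8 CPM with inhibitor and 8.85 to 10.9 CPM without, gave a log2 fold of 0.57 (SE 0.38, edgeR adjusted p = 0.42). With the pair of vehicle libraries left out, which are not among the groups compared here, Mbp rose (0.57, SE 0.11) and Sox10 (-1.59, SE 0.34) and Cspg4 (-0.40, SE 0.11) fell, where 6.89% of all genes rose and 10.7% fell. Without that pair the difference of responses was positive for 1.56% of all genes, among them Mbp (1.08, SE 0.17, edgeR adjusted p = 0.00494) and Myrf (1.45, SE 0.32, edgeR adjusted p = 0.0254). These comparisons share libraries with each other.

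Other genes of the lineage, from lists chosen with earlier results known, are read against the same shares of all genes: 27.5% fell and 23.7% rose with acetate in DMSO cultures, and 20.6% and 14.5% in inhibitor cultures. Of 15 further precursor and committed genes, 10 fell and 1 rose with acetate in DMSO cultures, and 7 fell and 1 rose in inhibitor cultures. Matn4, a matrix protein of precursors, went from 7.19 ± 3.94 to 0.944 ± 0.215 CPM (SD, n = 4 each; log2 fold -2.92, SE 0.60) in DMSO cultures, and Sox6, a transcription factor of precursors, fell (-0.63, SE 0.12). Tnr, which encodes tenascin-R, fell in DMSO cultures (-0.88, SE 0.15), and the Notch ligand gene Dll3 was the member of this list that rose (0.76, SE 0.14).

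Of 26 tested further myelin genes, 14 fell and 5 rose in DMSO cultures, and 11 fell and 4 rose in inhibitor cultures. Cryab, a small heat shock protein, went from 105 ± 15.2 to 32.5 ± 1.81 CPM (SD, n = 4 each), a log2 fold of -1.70 (SE 0.20), and Plekhb1, a membrane adaptor, fell too (-1.78, SE 0.30). Pllp, the proteolipid plasmolipin, rose from 3.02 ± 0.690 to 6.05 ± 0.372 CPM (SD, n = 4 each; log2 fold 1.0, SE 0.17), and Gamt, an enzyme of creatine synthesis, also rose (0.89, SE 0.08).

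Among 22 tested ligands and receptors that act on the lineage, 13 fell and 2 rose in DMSO cultures, and 8 fell and 1 rose in inhibitor cultures. Lpar1, a receptor of lysophosphatidic acid, fell in both arms (-2.70, SE 0.41, and -2.71, SE 0.44). So did Smo of the hedgehog pathway (-1.11, SE 0.14, and -0.82, SE 0.15) and the cytokine gene Lif (-1.24, SE 0.22, and -0.69, SE 0.23). Lingo1, a brake on myelination that neurons express, rose from 402 ± 86.2 to 717 ± 74.3 CPM (SD, n = 4 each; log2 fold 0.83, SE 0.13). Of 8 transcriptional brakes on differentiation, 3 fell and 2 rose in DMSO cultures and 1 fell in inhibitor cultures, counts near those shares. Sox5 (0.62, SE 0.12) and Hes5 (0.85, SE 0.24) rose and Id2 (-0.71, SE 0.17) and Id4 (-1.16, SE 0.32) fell in DMSO cultures.

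Markers of other non-neuronal cells moved with the lineage genes. Of 14 tested microglial markers, 14 fell in each arm, with a median log2 fold of -4.50 in DMSO cultures, and their summed level was 180.4 to 825 CPM in DMSO vehicle and 55.2 to 79.2 CPM in DMSO acetate. In inhibitor vehicle it was 43.1 to 698 CPM and in inhibitor acetate 47.6 to 95.4 CPM. Cx3cr1 went from 11.3 ± 5.13 to 0.149 ± 0.0696 CPM in DMSO cultures (SD, n = 4 each), and Aif1 fell as well (-3.43, SE 0.55). None of the 15 microglial markers was at 0 in every library, and the part of these cells in the lineage results was not tested.

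Of 12 tested markers of fibroblasts and meninges, 11 fell in DMSO cultures and 10 in inhibitor cultures, among them Thbs1 (-4.99, SE 0.62) and Fn1 (-3.06, SE 0.48) in the former. Their summed level was 230.1 to 912 CPM in DMSO vehicle and 83.2 to 111 CPM in DMSO acetate, and 108 to 816 CPM and 79.2 to 107 CPM with inhibitor. Of 9 tested pericyte and smooth muscle markers 7 fell and 1 rose in DMSO cultures and 6 fell in inhibitor cultures; Acta2 (-6.45, SE 0.78) and Tagln (-5.22, SE 0.72) fell in DMSO cultures. Ependymal and choroid plexus markers fell in 6 of 7 and 7 of 7 cases, with Folr1 at -2.62 (SE 0.39) and Foxj1 at -1.95 (SE 0.30), and endothelial markers in 3 of 6 in each arm, with Kdr at -3.11 (SE 0.52) and Flt1 at -4.14 (SE 0.95). No marker of these lists was at 0 in all 15 libraries. The cells they mark also express Pdgfra, Cspg4, Cldn11 and Enpp2, and their part in the falls of those genes was not tested.

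Astrocyte markers moved less in their median log2 fold. In DMSO cultures 7 of 13 fell, with a median of -0.40, and in inhibitor cultures 5 fell, with a median of -0.67. Their summed level was 4811 to 12650 CPM in DMSO vehicle and 3788 to 4700 CPM in DMSO acetate. It was 4546 to 13753 CPM in inhibitor vehicle and 3299 to 4976 CPM in inhibitor acetate. Gja1, an astrocyte connexin (-1.26, SE 0.17), and Sox9 (-0.68, SE 0.13) fell in DMSO cultures. Schwann cell markers, which would mark myelin of peripheral nerve, had 3 of 7 genes tested, and 1 of them, Egr2, fell in DMSO cultures (-0.97, SE 0.38) and had -0.74 (SE 0.43) in inhibitor cultures, while Prx had -0.21 (SE 0.13) and 0.07 (SE 0.14). Of 10 markers of dividing cells, 2 fell in DMSO cultures, Pcna (-0.54, SE 0.12) and Mcm5 (-0.57, SE 0.16), which had -0.02 (SE 0.13) and -0.26 (SE 0.17) in inhibitor cultures. Neuron markers went the other way: 12 of 14 rose in each arm, with medians of 0.61 and 0.54, and Eno2 (0.92, SE 0.09) and Rbfox3 (0.82, SE 0.10) rose in DMSO cultures. Scaled on these neuron markers, a choice made after the data were seen, 88.1% of all genes fell with acetate in DMSO cultures and the median over all genes was -0.96.

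**Figure D5:**
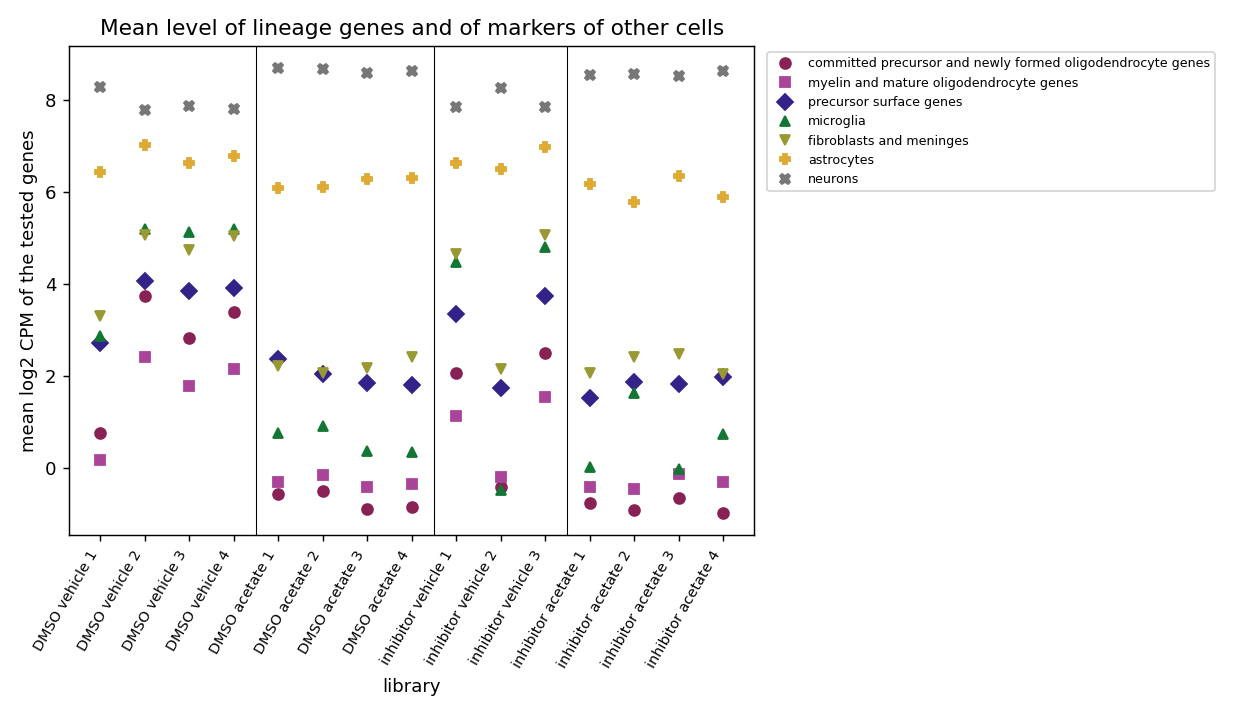
Mean log2 CPM of the tested genes of 7 lists (vertical axis) in each of 15 libraries (horizontal axis, lines between groups); each point is a list in a library. Committed, myelin and microglial genes are low in every acetate library and in inhibitor vehicle 2, DMSO vehicle 1 lies between, and neuron markers are highest in the acetate libraries.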

How the data were processed

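RNA-seq of 15 libraries was analysed from a table of raw whole-number counts of reads for each gene symbol, as the authors deposited it. The submitters' processing notes name STAR (2.5.2a), HTSeq (0.6.1p1), DESeq2 and mm10, and the library kit was directional, per the labels' protocols. Neither the annotation nor how reads were counted or assigned to strands is given in the sources used here. Of the 30 genes, 17 overlap a gene on the opposite strand (GENCODE vM21), so reads of such pairs may be mixed. Summary lines that name no gene, 38.9% to 47.4% of each library, entered neither library sizes nor tests.

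Groups and replicate numbers came from the labels, and each of 21 within-group pairs of libraries differed by more than sampling noise (chi-square of 4.65 to 144 per gene). In edgeR 4.0.16 (R 4.3.3, limma 3.58.1), genes were kept by the default expression filter (about 0.44 CPM), TMM gave factors of 0.89 to 1.13, and a single quasi-likelihood model with group means was fitted to the 15 libraries. Adjusted p-values are Benjamini-Hochberg over 15075 genes, a gene passed under 0.05, and each SE is the log2 fold over the square root of F. Log2 CPM used a prior count of 2. The steps were tested on simulated data. Intervals and floors (3 counts) cover counting error only.

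The members and lists were chosen with earlier results of these data known, and no list was tested as a set. Values per library are given for the 3 tested members with the highest average log2 CPM in each of the 3 smaller roles and for 6 myelin members. Of the other lists, up to 4 genes (lineage) or 2 (cell markers) with the smallest p in DMSO cultures are named. Alternatives were DESeq2 1.42.0, upper-quartile scaling, other filters, only the groups compared, a replicate block and each library left out. Added after the data were seen were a pair of libraries left out, scaling on neuron markers, sums without Olig1, and levels per kilobase and markers of dividing cells without the libraries that stood apart.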

Additional observations from a re-analysis of the deposited data

Results flagged for a closer look

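In groups of 4 libraries, 77 sets of values (CPM of the tested members and summary scores) were checked for a library far from the others, and 6 exceeded the 95% critical value of Dixon's test; chance alone gives about 1 in 20. Of these, 3 were in DMSO vehicle 1: Olig1 at 695 CPM where the next value was 72.7, Olig2 at 67.5 CPM where the next was 38.8, and the myelin share of the members' summed CPM at 9.48% where the next was 31.8%. The same library was low in microglial markers, as given above, and the part of that in these values was not tested.

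The remaining values were small in absolute terms. Gpr17 was at 0.0435 CPM in inhibitor acetate 1, the level of a single count, and the next library was at 0.180 CPM. Mbp was at 8.85 CPM in DMSO acetate 3, below 10.6 to 10.9 CPM in the rest of its group. Gjc3 was at 0.173 CPM in DMSO acetate 2 and at 0 in the other libraries of that group. Groups of 3 were not checked, so inhibitor vehicle 2 could not be found in this way.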

How the results depend on the processing

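Of the summary values under all alternatives, 251 kept within 1.5 times or 1 SD of the value reported and 23 did not. Leaving out the pair of vehicle libraries that stood apart was a choice made after seeing the data. In that fit 19 members fell in inhibitor cultures, where 26.7% of all genes fell. Olig1 alone rose with acetate in each arm, where 28% of all genes rose in DMSO cultures and 22.5% in inhibitor cultures. In the same fit 2 members had a positive difference of responses (1.56% of all genes) and 9 fell with inhibitor in vehicle (2.6%). With inhibitor in acetate 2 fell (10.7%) and 1 rose (6.89%). Fitted on only the groups compared, 7 fell in inhibitor cultures, where 15.3% of all genes fell. With inhibitor in acetate 2 fell and 1 rose in such a fit, where 10.6% of all genes fell and 8.58% rose. Scaled on neuron markers, 23 members fell in DMSO cultures and 21 in inhibitor cultures, where 88.1% and 78.8% of all genes fell. All genes shifted with them: the median over all genes was -0.96 and -0.76. Leaving out 1 library gave 15 to 20 members that fell and 0 to 1 that rose in DMSO cultures. Of all genes, 23.6% to 29.9% fell and 20.1% to 25.2% rose there. In inhibitor cultures 6 to 16 members fell and 0 to 1 rose, where 12.3% to 23.7% of all genes fell and 8.16% to 18.9% rose. With inhibitor in vehicle 0 to 4 members fell, where 0.393% to 4.14% of all genes fell. The causes were not tested.

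A prior count of 0.5 set the precursor minus myelin difference at 2.86 in DMSO acetate, 2.39 in inhibitor vehicle and 2.78 in inhibitor acetate, and without Olig1 the myelin share was 47.0%, 42.7% and 50.2% in these groups. Signs changed only where the reported log2 fold lay between -0.37 and 0.19 and did not pass. Under neuron-marker scaling, where most genes fell, the changed folds of Olig2 in both arms and of Itpr2 in DMSO cultures passed. In DMSO cultures, upper-quartile scaling gave Olig2 -0.0124 and Itpr2 -0.00970, neuron-marker scaling gave -0.82 and -0.86, and leaving out 1 library gave -0.0519 to 0.29 and -0.0390 to 0.15. In inhibitor cultures neuron-marker scaling gave Olig2 -0.57 and Sox8 -0.49, the pair left out gave Itpr2 0.17, and leaving out 1 library gave Lhfpl3 -0.31 to 0.10, Olig2 -0.0116 to 0.39, Sox8 -0.0429 to 0.49, Itpr2 -0.58 to 0.17 and Mbp -0.43 to 0.15.

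With the replicate number as a block, 19 members fell in DMSO cultures and 11 in inhibitor cultures, where 25.8% and 17.4% of all genes fell. Cnp and, in inhibitor cultures, Mal lost their calls. A pairing by number was not seen: of 21 same-numbered pairs 6 had a correlation over 0.1, and the values ran from -0.65 to 0.38. Of 15 libraries, 2 correlated best with their own number. The correlations were of deviations from group means, and the vehicle libraries that stood apart carry different numbers. They therefore cannot decide whether same-numbered libraries shared a culture. With DESeq2, 19 members fell in DMSO cultures and 14 in inhibitor cultures, where 27.1% and 20.3% of all genes fell. Depth limits the rare genes: 1 count was worth 0.028 to 0.054 CPM, so members at a few counts per group bear no comparison.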

Other observations

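Several markers of dividing cells, a list that includes those of cycling precursors, were lower in inhibitor vehicle than in DMSO vehicle. With the inhibitor in vehicle cultures, 4 of 10 fell by edgeR, where 1.99% of all genes fell. Their median log2 fold was -0.99, against -0.00339 over all genes. Of the 24 tested lineage members 0 passed, though their median was also negative, at -0.78. The summed level of the markers of dividing cells was 225 to 514 CPM in DMSO vehicle and 248 to 304 CPM in DMSO acetate. It was 124 to 209 CPM in inhibitor vehicle and 152 to 237 CPM in inhibitor acetate. All 3 inhibitor vehicle libraries were thus below all 4 DMSO vehicle libraries. DMSO vehicle 1 held the highest sum; without it 3 of 10 fell, where 1.91% of all genes fell, and the median was -0.52. Without both vehicle libraries that stood apart, 7 of 10 fell, where 2.6% of all genes fell, with a median of -0.77. Lineage members fell in the same fits too, 4 without DMSO vehicle 1 and 9 without both libraries.

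In inhibitor acetate, Olig1, Olig2, Sox8 and Itpr2 were each higher in replicates 1 and 3 than in 2 and 4, while C1ql1 was lower in replicates 1 and 3, at 4.13 and 3.11 CPM against 5.42 and 5.44 CPM. The microglial marker mean was 0.01 and -0.02 in replicates 1 and 3 and 1.62 and 0.75 in replicates 2 and 4. These values were noticed after the data were seen and were not tested.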
